A study of Homo sapiens with 6 samples.

Results

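The miR-23, miR-24 and miR-27 genes form a pair of paralogous clusters, and their mature products were followed here in extracellular vesicles of MHCC97H, a human hepatoma line of high metastatic potential. The members are all rows of the deposited table named miR-23a, miR-23b, miR-24, miR-27a or miR-27b once the arm and the copy number of the precursor are removed. This rule found 10 of 1007 rows, holding 6728 of 925199 counts. The study has 3 control libraries and 3 libraries from cells kept for 24 h with 4 µmol/L xanthatin, a plant-derived sesquiterpene lactone. Dimethylsulfoxide was present at 0.5% in all experiments per the labels, and both groups grew in medium with 5% ordinary fetal bovine serum and 5% serum freed of exosomes. The ordinary serum is a limit of the model, because serum carries vesicles of its own. Small RNA of 18 to 30 nt was sequenced. The labels do not say whether replicates came from separate cultures, so p-values measure the spread between these samples, which may be technical.

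A microRNA hairpin is cut into a 5p and a 3p arm, and the arm loaded into an Argonaute protein guides it to messages that pair with the seed, bases 2 to 8. In these clusters the 3p arm is generally the guide. miR-23 is known for repressing glutaminase downstream of MYC, miR-27 for repressing genes of lipid handling in liver and fat, and miR-24 for repressing cell-cycle genes. The clusters were also described in blood vessel growth.

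The chromosome 9 cluster (MIR23B, MIR27B and MIR24-1) spans 881 bases on the plus strand, at chr9:95085208-95086088 of GRCh38. It lies in the protein-coding gene C9orf3 in GENCODE release 29. There MIR23B and MIR27B overlap no exon of C9orf3, and MIR24-1 lies in an exon of 1 of its transcripts. MIR3074 is annotated on the opposite strand over MIR24-1, and the sources used here do not say whether counting used strand. The chromosome 19 cluster (MIR23A, MIR27A and MIR24-2) spans 373 bases on the minus strand, at chr19:13836287-13836659, within the exon of the noncoding transcript AC020916.1. Both clusters make the identical miR-24-3p, so its counts cannot be assigned to either one.

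The mature sequences (RefSeq, GRCh38.p14) are shown because the clusters are told apart by few bases. Each is written 5′ to 3′ with the seed in capitals, and all 10 members matched a RefSeq name. The guide arms fall under 3 seeds, of which UCACAUU is shared by both miR-23-3p, UCACAGU by both miR-27-3p, and GGCUCAG belongs to miR-24-3p.
hsa-miR-23a-3p: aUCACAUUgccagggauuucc
hsa-miR-23b-3p: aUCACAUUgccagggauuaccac
hsa-miR-27a-3p: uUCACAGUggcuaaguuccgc
hsa-miR-27b-3p: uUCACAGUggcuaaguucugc
hsa-miR-24-3p: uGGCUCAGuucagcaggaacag
hsa-miR-23a-5p: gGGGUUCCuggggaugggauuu
hsa-miR-23b-5p: uGGGUUCCuggcaugcugauuu
hsa-miR-27a-5p: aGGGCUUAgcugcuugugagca
hsa-miR-27b-5p: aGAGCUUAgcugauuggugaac
hsa-miR-24-2-5p: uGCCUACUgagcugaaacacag

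Counted from 1 at the 5′ end of the a form, miR-27a-3p and miR-27b-3p differ by 1 substitution, C19U. Over the 21 bases they share, miR-23a-3p and miR-23b-3p differ by U19A, and miR-23b-3p is listed with 23 bases. How reads that stop before base 19 were assigned is not stated, so the split between a and b forms of the 3p arms is uncertain. The 5p arms are easier to separate: 7 of 22 bases differ for miR-23 and 8 of 22 for miR-27. The miR-23-5p seed is the same in both clusters, and the miR-27-5p seed is not.

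Depth differed between the groups, with 63965 to 80088 miRNA counts in the controls and 204520 to 267956 with xanthatin. Normalised counts (CPM) are counts per 1e6 of a library size scaled by TMM, a factor that aligns most miRNAs between libraries. By this scale 1 count was worth 11.6 to 13.3 CPM among controls and 4.16 to 5.55 CPM with xanthatin. Of 254 miRNAs with enough counts to test, 77 differed between the groups at an adjusted p under 0.05 (30.3%). Of these, 34 (13.4%) were higher and 43 (16.9%) lower with xanthatin, and with library totals in place of TMM 22 were higher and 60 lower. The hepatocyte miRNA miR-122-5p was present, at 48383 ± 9796 CPM (SD, n = 3) in the controls and 1086 ± 116 with xanthatin.

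No member with enough counts passed the test. The 7 members with enough counts were the 5 3p arms and the 5p arms of miR-23b and miR-27a. By edgeR's quasi-likelihood test 0 of the 7 had an adjusted p under 0.05, against 30.3% of all tested miRNAs, and 0 had an unadjusted p under 0.05. DESeq2 and limma-voom called 0 of these 7 as well, and each gave 1 unadjusted p under 0.05 (0.0441 for miR-23b-3p by DESeq2 and 0.0367 for miR-27a-5p by limma-voom). Adjusted p by edgeR ranged from 0.126 to 0.861. In simulated data this edgeR test recovered 3.57% of 2-fold and 21.4% of 4-fold changes over all tested rows. A lack of calls therefore does not show a lack of change. Recovery for a given member may differ from these values, since the members' SE ran from 0.29 to 0.82, beside a median of 0.59 over all tested miRNAs. The log2 fold change (xanthatin minus control) was above 0 for 4 and below 0 for 3 of the 7. Its median was 0.42, beside -0.16 over all tested miRNAs. Groups did not overlap in CPM for 2 members in the upward direction (25.2% of all tested miRNAs) and for 1 in the downward direction (29.5%). In either direction this held for 54.7% of all tested miRNAs, so the members' share, 3 of 7, was not above that background. Of these members, miR-23b-3p and miR-27a-5p were tested through the group where they are higher. The separation of miR-27a-3p depended on TMM scaling.

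miR-27b-3p, the guide arm of the chromosome 9 miR-27 hairpin, was the most abundant member in both groups. It had 130 to 246 counts in the controls, and 568, 871 and 666 in xanthatin replicates 1, 2 and 3. On the CPM scale the controls stood at 2581, 1643 and 3273, against 2689, 3621 and 3699 with xanthatin. The groups overlapped, since control replicate 3 lay above xanthatin replicate 1. The log2 fold change was 0.42 (SE 0.29, adjusted p = 0.322), a fold of 1.34 with 0.888 and 2.01 at 2 SE on either side. With library totals in place of TMM, which lowers all tested miRNAs by a median of 0.34, it was 0.07.

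miR-27a-3p is its paralogue on chromosome 19. Its counts were 72, 8 and 87 in the controls and 248, 315 and 229 with xanthatin. Scaled, these were 833, 101 and 1158 CPM against 1174, 1310 and 1272 CPM. The groups did not overlap, although control replicate 3 lay just under the lowest xanthatin library. With library totals in place of TMM, control replicate 3 lay above every xanthatin library. The xanthatin libraries lay close together (1252 ± 69.9 CPM; SD, n = 3), while the highest control library held 11.5 times the level of control replicate 2. The log2 fold change was 0.84 (SE 0.76, adjusted p = 0.445). Without control replicate 2 it was 0.40 (adjusted p = 0.437), and without control replicate 3 it was 1.58 (adjusted p = 0.206).

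miR-24-3p, made by both clusters, had 210, 244 and 110 counts in the controls and 404, 515 and 445 with xanthatin. The levels were 2431, 3083 and 1464 CPM against 1913, 2141 and 2472 CPM, so all xanthatin libraries fell within the range of the controls. Control replicate 2, the lowest library for miR-27a-3p and miR-27b-3p, was the highest for miR-24-3p. Its log2 fold change was -0.10 (SE 0.31, adjusted p = 0.861), a fold of 0.935 with 0.610 and 1.43 at 2 SE on either side. The sign of this difference was not stable, and it was 0.27 (adjusted p = 0.516) without control replicate 2.

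miR-23a-3p, the guide arm on chromosome 19, had 21, 13 and 36 counts in the controls and at least 97 in each xanthatin library. The levels were 243, 164 and 479 CPM against 606, 445 and 539 CPM, with control replicate 3 above xanthatin replicate 2. The log2 fold change was 0.84 (SE 0.50, adjusted p = 0.239), and 1.46 (adjusted p = 0.0821) without control replicate 3.

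miR-23b-3p was far rarer than miR-27b-3p of the same cluster, with 8, 2 and 7 counts in the controls and 29, 114 and 29 with xanthatin. In CPM it was at 92.6, 25.3 and 93.1 against 137, 474 and 161. Each xanthatin library lay above each control, and xanthatin replicate 2 stood well above the other libraries. The log2 fold change of 1.86 was the largest among the 7 tested members (SE 0.81, adjusted p = 0.126). The control libraries alone held too few counts for the test, so the member was tested through the group where it is higher. It also had too few when xanthatin replicate 2 or 3 was left out.

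**Figure D1:**
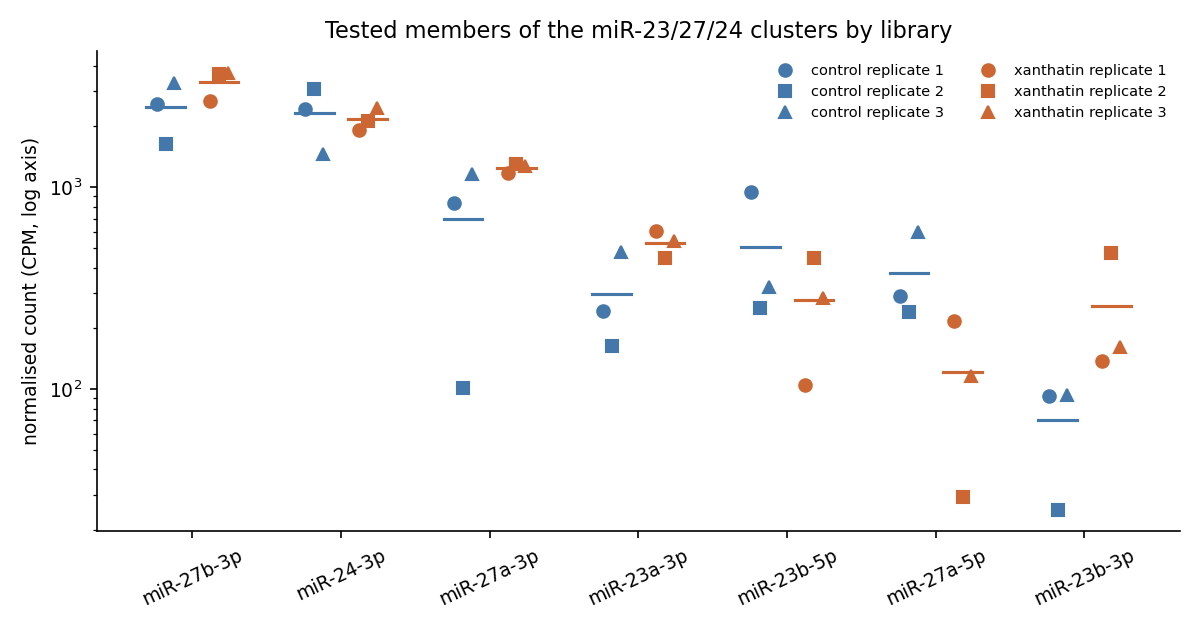
Normalised counts (CPM, log axis) of the 7 tested members in each library, with controls in blue, xanthatin in orange, a marker shape per replicate number and a line at each group mean. miR-27a-3p in control replicate 2 (101 CPM) and miR-23b-3p in xanthatin replicate 2 (474 CPM) lie apart from the rest of their groups.

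Both tested 5p arms had log2 fold changes below 0, as did miR-24-3p among the 3p arms. miR-27a-5p had 25, 19 and 45 counts in the controls and 46, 7 and 21 with xanthatin. Because the xanthatin libraries were deeper, this was 289, 240.1 and 599 CPM against 218, 29.1 and 117 CPM, and the groups did not overlap. The xanthatin libraries alone held too few counts for the test, so miR-27a-5p was tested through the controls, where it is higher. Its log2 fold change was -1.63 (SE 0.82, adjusted p = 0.173), with -1.06 (adjusted p = 0.445) without control replicate 3 and -2.33 (adjusted p = 0.135) without xanthatin replicate 1.

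miR-23b-5p had 82, 20 and 24 counts in the controls, and its xanthatin libraries ranged from 22 counts in replicate 1 to the highest in replicate 2. The CPM values were 949, 253 and 319 against 104, 445 and 283, so the groups overlapped widely. Its log2 fold change was -0.87 (SE 0.75, adjusted p = 0.424). The difference rested on control replicate 1, without which it was -0.07 (adjusted p = 0.942).

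**Figure D2:**
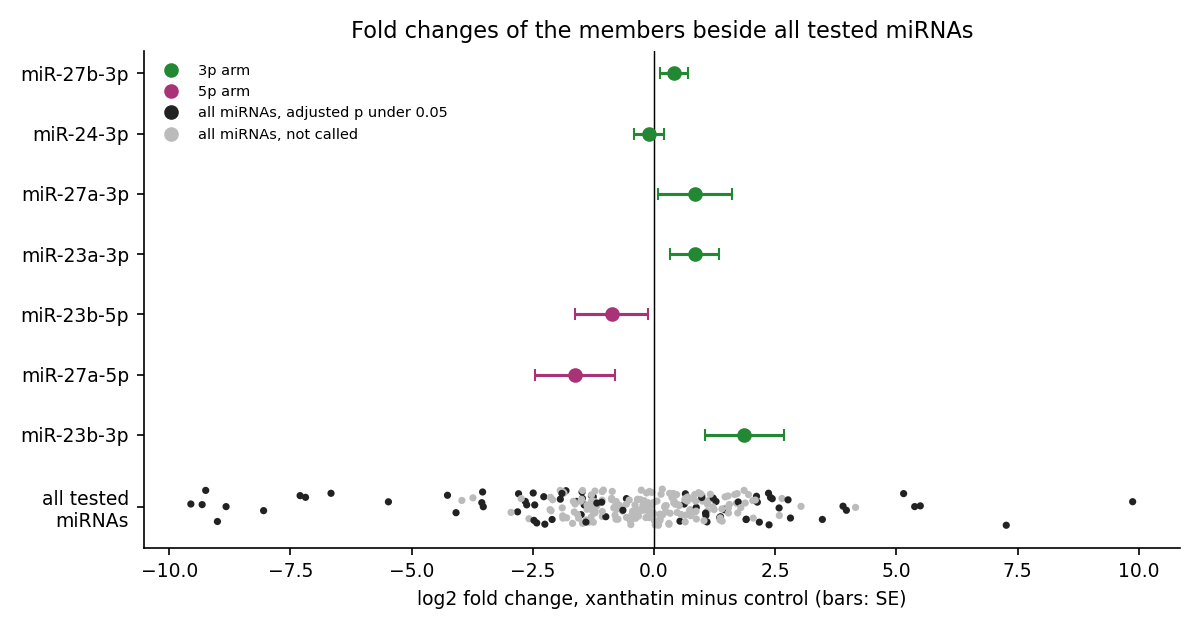
Fitted log2 fold changes (xanthatin minus control) with SE for the 7 tested members, 3p arms in green and 5p arms in purple, above all 254 tested miRNAs, of which the 77 called are black. The 3p arms lie between -0.10 and 1.86 and the 5p arms at -0.87 and -1.63, all within the bulk of the tested miRNAs.

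The other 3 members were too rare for the test. miR-23a-5p had 0, 7 and 20 counts in the controls and 0 in every xanthatin library. Taken against 3 counts summed over the group, the limit that a count of 0 allows (4.75 CPM), it was at least 23.6-fold lower with xanthatin, with the control counts in replicates 2 and 3 alone. The bound rests mostly on control replicate 3, without which it is 8.91-fold, and it ran from 14.6 to 36.9 with any other library left out. It covers counting error in the xanthatin libraries only, and not the spread of the controls, of which replicate 1 was at 0 too. On all libraries the adjusted p of miR-23a-5p was 0.066 by DESeq2, 0.119 when every row was tested and 0.19 when rows with a mean CPM of 10 were. Without control replicate 1, where it had 0 counts, it was tested and called by edgeR (log2 fold change -7.82, adjusted p = 0.0487). It entered that test only through control replicates 2 and 3, in the group where it is higher. The call therefore adds no support for a difference.

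miR-27b-5p had 1 count in each control library and 45, 1 and 0 with xanthatin. The ratio of the groups' count rates was 5.84 (exact 95% Poisson interval 1.88 to 29.4, counting error only). It rested on xanthatin replicate 1, which held 45 of the 46 counts. miR-24-2-5p, the 5p arm of the chromosome 19 miR-24 hairpin, had 1 count, in control replicate 3, so no level could be compared.

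In order of level, the control means ran from miR-27b-3p (2499 ± 819 CPM; SD, n = 3) and miR-24-3p (2326 ± 815) to miR-27a-3p (697 ± 541), miR-23b-5p (507 ± 384), miR-27a-5p (376 ± 194.4), miR-23a-3p (295 ± 164), miR-23a-5p (118 ± 136) and miR-23b-3p (70.3 ± 39.0). Each mean in this order lay within 1 SD of the next, except at the steps from miR-24-3p to miR-27a-3p and from miR-23a-3p to miR-23a-5p. In xanthatin libraries the order was miR-27b-3p (3336 ± 562), miR-24-3p (2175 ± 281), miR-27a-3p (1252 ± 69.9), miR-23a-3p (529.9 ± 80.9), miR-23b-5p (277 ± 170), miR-23b-3p (257 ± 188) and miR-27a-5p (121 ± 94.4). There the ranges of the first 4 did not overlap each other, and those of the last 3 did. The sequences are of 21 to 23 bases, so levels were set side by side without a length term.

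Among the known miRNA names, miR-27b-3p ranked 43 by mean CPM in the controls and 30 with xanthatin. miR-24-3p ranked 46 and 44 and miR-27a-3p 73 and 52. miR-23a-3p moved from rank 117 to 74, and miR-27a-5p from 96 to 141.

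As a share of all miRNA counts, the 10 members together made up 0.802%, 0.632% and 0.902% in the controls and 0.625%, 0.760% and 0.752% with xanthatin. The means were 0.779% ± 0.136 and 0.712% ± 0.0759 (SD, n = 3; two-sided exact permutation p = 0.40). With 3 libraries against 3 this test cannot go below 0.10. The chromosome 9 members (miR-23b and miR-27b) held 0.348% ± 0.115 and 0.350% ± 0.0659, and the chromosome 19 members (miR-23a and miR-27a) held 0.169% ± 0.115 and 0.169% ± 0.00847. miR-24 held 0.261% ± 0.087 and 0.193% ± 0.0241 (exact permutation p = 0.30). Each of these group differences was smaller than the SD of the control libraries. The result depends on what else was counted: as a share of counts without novel550_mature, a predicted miRNA, and the let-7 family, the members held 0.901% ± 0.150 and 1.22% ± 0.125 without overlap (exact permutation p = 0.10). By that denominator the chromosome 9 members held 0.403% ± 0.131 and 0.601% ± 0.114 (exact permutation p = 0.20). Among the rows left out, let-7a-5p and let-7b-5p rose with xanthatin (log2 fold change 2.17 and 1.37). Leaving out rows that rose raises the xanthatin share of whatever remains, so this is not a result about the members alone.

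Within the clusters' own counts, the chromosome 9 members took 43.8% ± 8.14 in the controls and 48.9% ± 4.56 with xanthatin. The chromosome 19 members took 20.5% ± 11.2 and 24.0% ± 3.83. Thus, as the reads were assigned, the chromosome 9 members were the more abundant in both groups. miR-27b-3p alone was at 35.5% ± 6.71 and 41.4% ± 2.85. The split between a and b forms is uncertain for the 3p arms, and miR-24-3p cannot be assigned to either cluster.

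Ratios between members within a library need no scaling, and 10 were compared. 8 were listed with the design and 2, which involve miR-23a-3p, were added after its values were seen. None could pass, since the smallest exact p is 0.10. The smallest value reached after adjustment over the 10 was 0.25. The groups did not overlap for 4 of them, or for 3 with 0.5 added to each count. All of these but miR-27a-5p to miR-27a-3p involve miR-23b-3p, with 8, 2 and 7 control counts, so they are not separate observations. No share over ratios of other miRNAs was computed, and 54.7% of single tested miRNAs did not overlap in CPM either.

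The paralogue ratio of miR-27b-3p to miR-27a-3p was 3.10, 16.2 and 2.83 in the controls and 2.29, 2.77 and 2.91 with xanthatin. All libraries held more of the b form, and control replicate 2, with 8 counts of miR-27a-3p, stood apart. The log2 difference was -0.98 (exact permutation p = 0.20), and -0.16 without control replicate 2. For the miR-23 paralogues, the ratio of miR-23b-3p to miR-23a-3p was 0.381, 0.154 and 0.1944 in the controls and 0.227, 1.07 and 0.299 with xanthatin, a log2 difference of 0.89 (exact permutation p = 0.40) that was 0.21 without xanthatin replicate 2. Here the a form was higher in 5 of 6 libraries. As the reads were assigned, the order of the paralogues was the reverse of that for miR-27.

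miR-23b-3p and miR-27b-3p come from 1 cluster. Their ratio was 0.0359, 0.0154 and 0.0285 in the controls and 0.0511, 0.131 and 0.0435 with xanthatin. Every xanthatin library lay above every control, with a log2 difference of 1.40 (exact permutation p = 0.10, adjusted 0.25), and 0.91 without xanthatin replicate 2. The control values rest on 8, 2 and 7 counts of miR-23b-3p. On chromosome 19, the ratio of miR-23a-3p to miR-27a-3p was 0.292, 1.63 and 0.414 in the controls and 0.516, 0.340 and 0.424 with xanthatin, a log2 difference of -0.47 (exact permutation p = 0.90) that was 0.27 without control replicate 2.

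The ratio of miR-24-3p to miR-27b-3p was 0.942, 1.88 and 0.447 in the controls and 0.711, 0.591 and 0.668 with xanthatin. Xanthatin libraries lay close together and inside the range of the controls, and the exact permutation p was 0.50. Against miR-27a-3p, the ratio of miR-24-3p was 2.92, 30.5 and 1.26 in the controls and 1.63, 1.63 and 1.94 with xanthatin (exact permutation p = 0.40). Its log2 difference of -1.48 was -0.15 without control replicate 2. Against miR-23b-3p, miR-24-3p was at a ratio of 26.2, 122 and 15.7 in the controls and 13.9, 4.52 and 15.3 with xanthatin (log2 difference -1.90, exact permutation p = 0.10, adjusted 0.25). Its closest libraries, control replicate 3 and xanthatin replicate 3, nearly met, and with 0.5 added to each count the groups overlapped (exact permutation p = 0.20). The log2 difference was -1.04 without control replicate 2. The ratio of miR-23b-3p to miR-27a-3p overlapped between groups (log2 difference 0.42, exact permutation p = 0.50).

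**Figure D3:**
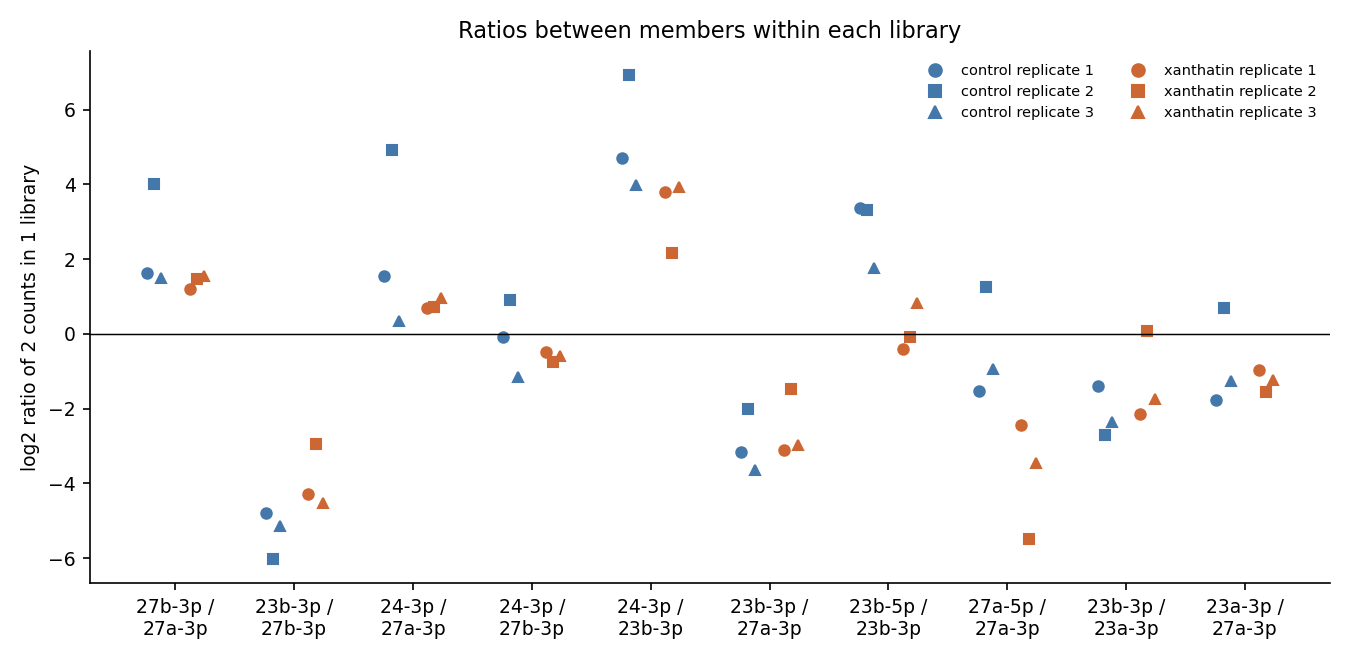
log2 ratios of 2 members' counts within each library, for the 10 ratios compared, with controls in blue, xanthatin in orange and a marker shape per replicate number. Control replicate 2 lies apart in the ratios of miR-27b-3p, miR-24-3p, miR-23a-3p and miR-27a-5p to miR-27a-3p, and the groups do not overlap in the 2 ratios of 5p to 3p and in those of miR-23b-3p to miR-27b-3p and miR-24-3p to miR-23b-3p.

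The arms of a hairpin were then compared, with the 3p counts split between a and b forms as deposited, which is uncertain. The hairpins are shown 5′ to 3′ (RefSeq, GRCh38.p14) with the 5p arm, then the 3p arm, in capitals, since the balance of these stretches is the quantity measured. The coordinates are chr9:95085208-95085304 for MIR23B, chr9:95085445-95085541 for MIR27B, chr19:13836587-13836659 for MIR23A and chr19:13836440-13836517 for MIR27A.
MIR23B: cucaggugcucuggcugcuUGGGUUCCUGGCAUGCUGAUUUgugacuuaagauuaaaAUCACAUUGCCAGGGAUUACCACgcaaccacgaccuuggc
MIR27B: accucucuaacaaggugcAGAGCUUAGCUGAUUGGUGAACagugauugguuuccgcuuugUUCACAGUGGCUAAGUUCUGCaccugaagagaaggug
MIR23A: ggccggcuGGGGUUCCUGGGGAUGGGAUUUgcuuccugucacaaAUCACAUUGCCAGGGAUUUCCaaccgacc
MIR27A: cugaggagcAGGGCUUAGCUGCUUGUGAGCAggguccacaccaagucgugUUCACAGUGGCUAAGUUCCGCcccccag

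In the miR-23b hairpin the 5p arm held most of the counts in control. It took 91.1% (82 of 90 counts; exact 95% Clopper-Pearson interval 83.2 to 96.1), 90.9% (20 of 22; 70.8 to 98.9) and 77.4% (24 of 31; 58.9 to 90.4). In xanthatin libraries it took 43.1% (22 of 51; 29.3 to 57.8), 48.4% (of 221 counts; 41.7 to 55.2) and 63.7% (51 of 80; 52.2 to 74.2). The groups did not overlap, and the means were 86.5% ± 7.85 and 51.8% ± 10.7 (SD, n = 3; two-sided exact permutation p = 0.10, adjusted 0.20 over 4 hairpins). The log2 ratio of 5p to 3p differed by -2.71, and by -3.23 to -2.44 when any one library was left out.

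In the miR-27a hairpin the 3p arm was the larger in 5 of 6 libraries. The 5p share was 25.8% (25 of 97 counts; 17.4 to 35.7), 70.4% (19 of 27; 49.8 to 86.2) and 34.1% (45 of 132; 26.1 to 42.8) in control. It was 15.6% (46 of 294; 11.7 to 20.3), 2.17% (7 of 322; 0.878 to 4.43) and 8.40% (21 of 250; 5.27 to 12.6) with xanthatin. The groups did not overlap, with means of 43.4% ± 23.7 and 8.74% ± 6.74 (exact permutation p = 0.10, adjusted 0.20). The log2 ratio differed by -3.38, and by -4.06 to -2.53 when any one library was left out.

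In the miR-23a hairpin the 5p share was 0% (0 of 21, which allows a share of up to 14.3%), 35.0% and 35.7% in control. In xanthatin libraries it was 0% in each, with 0 of at least 97 counts, which allows up to 2.34%, 2.80% and 3.09%. The exact permutation p was 0.40, since control replicate 1 was at 0 as well. In the miR-27b hairpin the 5p arm was nearly absent, at 0.446%, 0.763% and 0.405% in the controls and 7.34%, 0.115% and 0% (0 of 666, which allows up to 0.450%) with xanthatin. The groups overlapped (exact permutation p = 1).

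**Figure D4:**
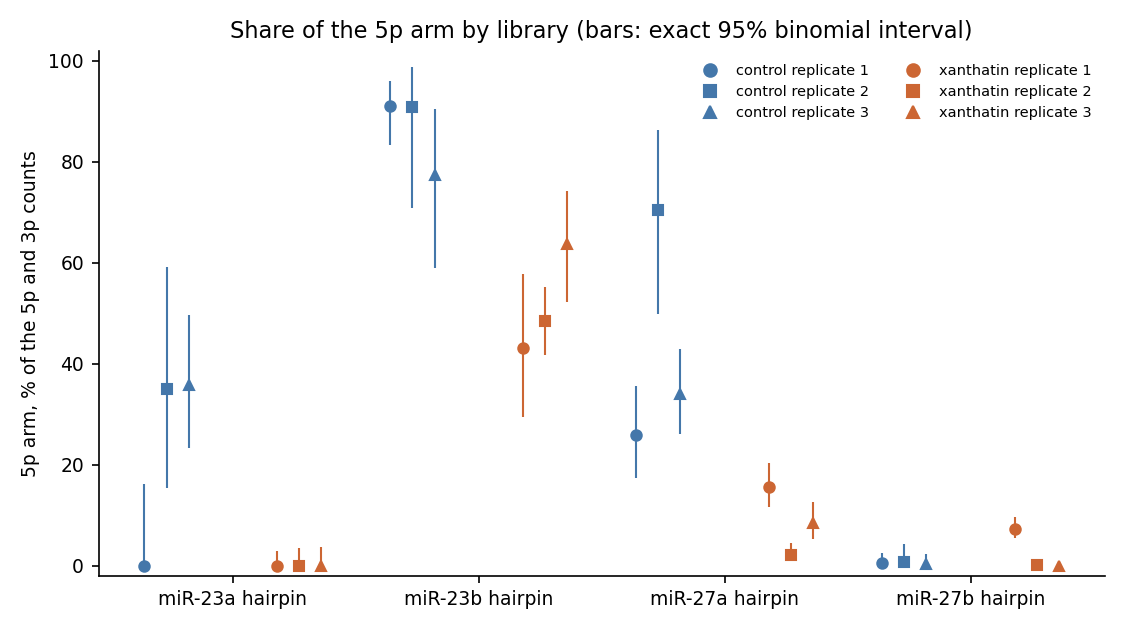
Share of the 5p arm among the 5p and 3p counts of 4 hairpins in each library, with exact 95% binomial intervals that cover counting error only, controls in blue and xanthatin in orange. The share is lower in every xanthatin library for miR-23b (43.1% to 63.7% against 77.4% to 91.1%) and miR-27a (2.17% to 15.6% against 25.8% to 70.4%).

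Across all 38 hairpins with both arms in the table and at least 20 counts in each library, a minimum set after the values were seen, the 5p share was lower without overlap in 5 (13.2%) and higher without overlap in 7 (18.4%). The 5 include miR-23b and miR-27a. The 34 hairpins outside these clusters therefore held 3 with such a lower share, and 7 with a higher one. By the share of the less abundant arm, 7 of the 34 were lower without overlap and 3 higher. On that measure the members went opposite ways, with miR-27a lower and miR-23b higher. The minimum only just admitted miR-23a and miR-23b, whose lowest totals were 20 and 22 counts. The median change of the 5p share over the 38 was 0.312 percentage points.

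How far replicates spread beyond counting error differed between the members. The chi-square of their counts over the scaled library sizes, on 2 degrees of freedom, was 65.8 for miR-27a-3p in the controls and 1.71 with xanthatin. For miR-24-3p it was 43.6 and 14.1, for miR-27b-3p 41.7 and 39.5, and for miR-23b-3p 3.44 and 58.2. The SD of miR-24-3p was 35.0% of its mean in the controls and 12.9% with xanthatin.

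By the smallest root mean square difference of centred log2 CPM over the 6 libraries, the known miRNAs nearest to miR-27b-3p were miR-25-3p (0.20) and miR-125a-5p (0.22). Those nearest to miR-24-3p were miR-423-3p (0.19) and miR-151a-3p (0.30). miR-23a-3p was nearest to miR-146b-5p (0.27) and miR-128-3p (0.29), and miR-27a-3p to miR-221-3p (0.30) and miR-339-3p (0.71). The nearest were miR-103a-3p (0.58) and let-7g-5p (0.64) for miR-23b-3p, miR-484 and miR-25-5p (0.57 for both) for miR-23b-5p, and miR-1247-3p and miR-1908-5p (0.66 for both) for miR-27a-5p. All libraries share depth differences by group, so these values describe only this set. Of the neighbours, let-7g-5p (log2 fold change 1.90, adjusted p = 9.27e-04) rose and miR-1247-3p (-1.50, adjusted p = 0.0341) fell, and the others did not pass.

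miR-128-3p, one of the 2 nearest to miR-23a-3p by pattern, is related to miR-27-3p by sequence. Its bases 1 to 7 equal the miR-27-3p seed and so reach overlapping target sites. It is printed with its own bases 2 to 8 in capitals, and miR-9985, which holds the miR-27-3p seed at bases 2 to 8, beside it.
hsa-miR-128-3p: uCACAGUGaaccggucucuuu
hsa-miR-9985: uUCACAGUggcuaagcuau
miR-128-3p had 132, 104 and 191 counts in the controls and 573, 763 and 447 with xanthatin. Its log2 fold change was 0.64 (SE 0.30) with an adjusted p of 0.149. miR-9985 had 2 counts in control replicate 1 and 0 elsewhere.

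Other miRNAs of the settings in which these clusters are known were read from lists that leave the members out. Of 6 tested miRNAs listed as responsive to hypoxia, as the clusters are, 0 were called and the median log2 fold change was -0.01. Their most abundant names were miR-26a-5p (2628 ± 79.0 against 3256 ± 252 CPM, adjusted p = 0.179) and miR-181b-5p (693 ± 238 against 785 ± 254 CPM, adjusted p = 0.794). Of 6 tested miRNAs of hepatic lipid metabolism, 2 rose (miR-182-5p and miR-183-5p) and 2 fell (miR-122-5p and miR-148a-3p), beside 13.4% and 16.9% of all tested miRNAs, with a median of 0.43. With library totals, RLE or upper-quartile scaling 1 of these rose and 2 fell. Of 19 tested miRNAs repressed by MYC, 8 rose, 7 of them let-7 members and the other miR-146a-5p, and 0 fell, beside 13.4% and 16.9% of all tested miRNAs, with a median of 0.75 beside -0.16 over all tested miRNAs. With library totals in place of TMM 7 of these rose and 2 fell, with a median of 0.40.

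The share of counts held by each list of cell type markers was lower with xanthatin, though not every name on them was. Of all tested miRNAs, 13.4% were called higher and 16.9% lower. Blood markers held 0.619% to 1.19% of counts in the controls and 0.0556% to 0.0705% with xanthatin, and the 1 tested, miR-486-5p, fell. Of the 6 names, miR-144 had no row, and miR-486 held 1879 counts in the controls and 422 with xanthatin. The other 4 had at most 11 counts in a group: miR-451a had 6 and 10 counts, miR-150 had 11 and 0, miR-223 had 2 and 0, and miR-142 had 0 and 1. Stromal, endothelial and muscle markers held 0.443% to 0.607% and 0.0664% to 0.0953%, and 3 of 4 tested (miR-10b-5p, miR-143-3p and miR-1-3p) fell. Of their 11 names, miR-133b had no row, and miR-145, miR-214 and miR-133a were at 0 with xanthatin. miR-206 had 10 counts in the controls and 23 in the deeper xanthatin libraries. Hepatocyte markers held 11.0% to 13.8% and 2.74% to 3.33%. Of the 5 tested, miR-192-5p rose (adjusted p = 0.0399) and miR-122-5p and miR-148a-3p fell, but with library totals in place of TMM 0 rose and 3 fell. Vessel and blood cells also express miR-23, miR-24 and miR-27, and the part of such material in the members' values was not tested.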

How the data were processed

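Small RNA counts of 6 vesicle samples were used, 3 control and 3 xanthatin, grouped by title. The authors deposited, per the file headers, 2 values per mature miRNA name and library: a count (whole numbers, not normalised) and a TPM. The submitters' processing notes name hg38; for the aligner and counter, nothing is given in the sources used here. The test on counts was that of edgeR 4.0.16, run in R 4.3.3 (quasi-likelihood F test on group, TMM, default filter with minimum count 10, Benjamini-Hochberg over all 254 tested miRNAs, threshold 0.05), after the code was tested on simulated data. With 200 of 1007 simulated rows changed, the test recovered 3.57% of 2-fold, 21.4% of 4-fold and 36.9% of 8-fold changes among rows tested. There 6.84% of calls were false. SE is the absolute log2 fold change over the square root of F. DESeq2 1.42.0, limma 3.58.1, other scalings and filters, the replicate block and leaving out each library were alternatives. Shares and ratios used two-sided exact permutation tests (scipy 1.17.1). Intervals and floors cover counting error only, since no use of molecular identifiers is stated in the sources used here.

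The members, lists and tests were chosen with earlier results of these data known. Named were all members, their 2 nearest known miRNAs by pattern, the 2 most abundant names of a list, and names sharing a seed; called names of lists were chosen after their values were seen. Replicates were not identical (chi-square per degree of freedom 16.1 to 21.3).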

Additional observations from a re-analysis of the deposited data

How the results depend on the processing

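None of the 7 tested members was called under any of the alternatives in which it could be tested (19 for each, 16 for miR-23b-3p), and 6 kept their sign in all of them. miR-23a-5p, outside the 7, was called by edgeR without control replicate 1 (adjusted p = 0.0487). It could be tested there only through the controls, where it is higher. miR-24-3p changed sign, to 0.027 without novel550_mature, 0.20 with no count filter, 0.0665 with DESeq2 and 0.017 with known names only, and it ran from -0.30 to 0.27 when 1 library was left out. The number of called miRNAs was 77, from 56 to 69 with 1 library left out, 100 with DESeq2 and 49 with known names only, where fewer rows were tested. The 34 higher and 43 lower became 22 and 60 with library totals only and 37 and 30 with no count filter. In the hypoxia list 1 was called, against 0, with library totals only.

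Leaving out 1 library moved 3 log2 ratios across 0: miR-24-3p to miR-27b-3p (-1.02 to 0.0135), miR-23b-3p to miR-27a-3p (-0.10 to 0.89) and miR-23a-3p to miR-27a-3p (-0.96 to 0.27). The difference in the members' share of counts was -0.0663 percentage points, but 0.0444 of known names, 0.319 without novel550_mature and the let-7 family, and 0.000459 of the total implied by the TPM. For the chromosome 19 members these were 0.0276, 0.0943 and 0.000218, and for the chromosome 9 members, at 0.00220 with all counts, they were 0.0603, 0.198 and 0.000474. For miR-24 without novel550_mature and let-7 it was 0.0274. Taking out let-7a-5p and let-7b-5p, which rose with xanthatin, raises the share of whatever remains in that group. With 1 library left out, the chromosome 19 difference ran from -0.0517 to 0.0618 and the chromosome 9 difference from -0.0630 to 0.0454. The bound for miR-23a-5p with libraries left out was added after seeing the data. The cause of these changes was not tested.

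Deviations of same-numbered libraries correlated at 0.123, -0.0116 and -0.0484. Pairs with unlike numbers ran from -0.152 to 0.162, so these values cannot tell whether same-numbered libraries were paired. With a replicate block 54 miRNAs were called, and no member. Depth limits miR-23b-3p, miR-23a-5p, miR-27b-5p and miR-24-2-5p most, since 1 control count is worth over 11 CPM.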
